A study of Mus musculus with 24 samples.

Results

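The serpins are a family of proteins that fold around a strained reactive loop. An inhibitory serpin offers that loop to a serine or cysteine protease, is cut once, and traps the enzyme in a covalent complex that the liver then clears. The liver makes most of the serpins of blood plasma, among them the main inhibitors of neutrophil elastase, thrombin, plasmin and complement C1s, and some members have lost inhibition and carry hormones or fold collagen instead. The family was taken as the protein-coding rows whose symbol is Serpin followed by a clade letter from a to i and a number, which gave 60 genes of 22369 protein-coding genes and 37583 rows in the table. Clade A held 23 of them, clade B 26, clade E 3, clades F and I 2 each, and clades C, D, G and H 1 each. A further 7 serpin rows of other biotypes, mostly pseudogenes, were left out.

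RNA was measured in 12 liver libraries of C57BL6/CBA mice aged 8.5 months, 3 replicates in each of 4 groups. The WT group was wild type and untreated, and the Smyd3KO group carried a gene trap in the 5th intron of Smyd3, a lysine methyltransferase, and was untreated. The DEN_WT and DEN_Smyd3KO groups were mice of the same genotypes given 1 intraperitoneal injection of 25 mg/kg diethylnitrosamine (DEN), an agent that produces hepatocellular carcinoma late in life. The labels call each sample liver and do not say how much of it was tumour, and the knockout is constitutive, from gene-trap ES cells and not restricted to hepatocytes. The comparison of DEN_WT with WT asks what the carcinogen leaves behind, and that of DEN_Smyd3KO with DEN_WT asks what differs when Smyd3 is trapped. Values are counts per gene that the authors normalised for depth, so they can be compared between libraries for 1 gene, and no transcript lengths were used to set 1 gene's level against another's. Where values of several genes are summed, or given as a share of a sum, longer transcripts weigh more.

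The values of a library summed to between 22320634 and 28973396, and libraries of a group correlated at r = 0.956 to 0.978 across genes. Smyd3 itself ranged from 59 to 89 in WT, 57 to 74 in DEN_WT, 17 to 29 in Smyd3KO and 3 to 12 in DEN_Smyd3KO. By the limma test described below, Smyd3KO against WT did not pass for Smyd3 (log2 -1.71, adjusted p = 0.0651). The 2 knockout groups differed in the Smyd3 RNA left, with less in DEN_Smyd3KO than in Smyd3KO (-1.58, 0.022). The 8 hepatocyte markers were detected throughout and summed to 1827827 to 2253968 in WT, 1770030 to 2716747 in Smyd3KO, 2999956 to 4367870 in DEN_WT and 1728768 to 2472078 in DEN_Smyd3KO. Alb, at 904165 to 3386204, made up most of each sum. By limma, Apoa1 rose and Cps1 fell with DEN (adjusted p = 0.0429 and 0.0154), and Alb did not pass (0.426). Ttr, Tat and Cps1 were higher in DEN_Smyd3KO than in DEN_WT and 0 were lower, against the direction of the sums. Smyd3KO replicate 3 stood apart from the other Smyd3KO libraries, and DEN_WT replicate 1 from the other DEN_WT libraries, at several clade A genes described below. Libraries are named below by group and replicate number, as in Smyd3KO 3. In bulk liver, fewer cells of a type and less RNA per cell cannot be told apart.

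Of the 60 serpins, 35 reached a value of 10 in at least 3 libraries and were tested, and no tested member passed that filter through 1 group alone. Clade A had 22 of its 23 genes in the test and clade B 5 of 26. The 25 untested genes were 21 of clade B, Serpina1f, Serpine3, Serpini1 and Serpini2, and their highest value in any library ran from 1 to 30, with 19 of them never above 5. Serpins took 6.19% to 13.1% of the summed values of a library, and the 5 alpha-1-antitrypsin copies alone took 4.52% to 11.5%.

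The promoters below are printed because they belong to genes of the Serpina3 row, where the largest falls with DEN were seen. Mouse has a row of Serpina3 copies where human has a single antichymotrypsin gene. Serpina3f, Serpina3g and Serpina3i fell and share a motif, and Serpina3c fell while Serpina3n, with a very similar promoter, did not pass. The windows are RefSeq promoters of build GRCm38.p6 on chromosome 12, from 250 bases before to 50 bases after the annotated start, 5′ to 3′ on the gene's strand. Serpina3f is at chr12:104214294-104214593 (plus strand), Serpina3g at chr12:104235897-104236196 (plus) and Serpina3i at chr12:104262872-104263171 (plus), and the capitals mark the bases that match the STAT motif TTCNNNGAA.
Serpina3f: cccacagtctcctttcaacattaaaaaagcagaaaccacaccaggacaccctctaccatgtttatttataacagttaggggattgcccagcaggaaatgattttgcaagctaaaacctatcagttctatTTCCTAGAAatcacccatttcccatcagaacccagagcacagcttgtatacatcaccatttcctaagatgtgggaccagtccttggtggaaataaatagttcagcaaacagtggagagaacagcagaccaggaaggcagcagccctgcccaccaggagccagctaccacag
Serpina3g: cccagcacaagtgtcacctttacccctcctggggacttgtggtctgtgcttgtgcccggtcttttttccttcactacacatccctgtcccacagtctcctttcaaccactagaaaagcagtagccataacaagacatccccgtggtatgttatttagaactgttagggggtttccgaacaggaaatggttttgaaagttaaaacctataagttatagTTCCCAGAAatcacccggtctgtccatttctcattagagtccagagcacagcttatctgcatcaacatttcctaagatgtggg
Serpina3i: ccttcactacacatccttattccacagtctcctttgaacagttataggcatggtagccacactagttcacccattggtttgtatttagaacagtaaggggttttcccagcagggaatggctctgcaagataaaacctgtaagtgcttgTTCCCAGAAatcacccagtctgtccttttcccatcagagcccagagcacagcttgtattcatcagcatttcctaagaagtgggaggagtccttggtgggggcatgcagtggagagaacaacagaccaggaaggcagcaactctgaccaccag
For Serpina3c, at chr12:104153823-104154122 (minus strand), and Serpina3n, at chr12:104406458-104406757 (plus), the capitals mark bases that differ between the 2 windows or stand opposite a gap.
Serpina3c: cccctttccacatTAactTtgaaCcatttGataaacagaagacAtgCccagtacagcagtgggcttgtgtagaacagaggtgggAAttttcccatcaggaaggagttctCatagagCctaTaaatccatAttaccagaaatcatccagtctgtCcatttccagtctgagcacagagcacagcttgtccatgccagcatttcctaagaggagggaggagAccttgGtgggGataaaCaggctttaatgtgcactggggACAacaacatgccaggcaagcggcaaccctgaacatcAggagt
Serpina3n: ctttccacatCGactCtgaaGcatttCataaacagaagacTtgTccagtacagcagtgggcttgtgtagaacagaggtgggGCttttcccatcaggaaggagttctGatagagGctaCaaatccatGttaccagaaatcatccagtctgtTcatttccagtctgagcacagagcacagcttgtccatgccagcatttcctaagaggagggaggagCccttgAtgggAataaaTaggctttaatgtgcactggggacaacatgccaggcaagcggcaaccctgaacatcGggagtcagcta
The last pair agreed at 92.6% of 297 aligned columns, with 19 substitutions and 3 bases opposite a gap. The other 14 pairs of Serpina3 windows that aligned over at least 200 columns were 65.0% to 80.5% identical. Counted from the first base of the motif, the Serpina3g match reads C3A in both Serpina3c and Serpina3n, so neither holds the motif, and C5T in Serpina3f, where it is kept. The letters TATAAA lie 132 bases before the start of Serpina3c, and T3C removes them in Serpina3n. These are letters in a window and not shown sites of binding.

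With DEN in wild-type liver, 8 of the 10 tested Serpina3 genes fell while Serpinf2, the plasmin inhibitor, and both hormone carriers rose. The test was limma's moderated test on log2(value + 1) across all genes, with Benjamini-Hochberg adjustment and a threshold of 0.05. In DEN_WT against WT, 18 of 35 tested serpins (51.4%) passed, 7 higher and 11 lower, where 29.6% of the 16471 tested genes passed, 16.1% higher and 13.5% lower. Of the 11 that fell, 10 were of clade A and 8 of these were Serpina3 copies. The median change of the 35 was -0.0040 on the log2 scale, beside -0.018 for all tested genes. When each library was rescaled to the sum of all but the 10 highest genes, which moved the median of all genes to 0.36, the split of the serpins became 12 higher and 8 lower. Quantile normalisation gave 11 higher and 11 lower. Leaving out 1 library at a time gave 13 to 19 serpin calls. Over all tested genes these fits gave 3782 to 5353 calls, beside 4882 with every library.

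Under DEN, the knockout liver had less Serpinf2 and less of both hormone carriers, and more Serpina3b, Serpina3c and Serpina3f. In DEN_Smyd3KO against DEN_WT, 17 of 35 serpins (48.6%) passed, 6 higher and 11 lower, beside 33.9% of all tested genes, 16.4% higher and 17.4% lower. The rescaled values gave 6 higher and 13 lower, with the median of all genes at -0.27. The count fell to 11 without DEN_WT 2 and to 10 without DEN_Smyd3KO 2, and the range over all such fits was 10 to 18. Over all tested genes these fits gave 3960 to 6052 calls, beside 5576 with every library. Both comparisons use the DEN_WT libraries, so their directions are not independent of each other. Of the 7 serpins that rose with DEN, 5 were lower in DEN_Smyd3KO and 2 did not pass, and of the 11 that fell, 5 were higher and 6 did not pass. The same count was not made over all tested genes, so these numbers have no background to be set against.

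Without DEN, no serpin passed in Smyd3KO against WT, where 1.16% of all tested genes passed (0.546% higher and 0.613% lower), and 7 of the 35 had an unadjusted p below 0.05. The count was 4 without Smyd3KO 3 (Serpina3a, Serpina3g, Serpina3n and Serpina12, named here because of that count), 1 without WT 1 (Serpina3n) and 2 when those 2 groups were fitted alone (Serpina9 and Serpine2). No serpin passed in DEN_Smyd3KO against Smyd3KO either, where 14.9% of all tested genes passed (8.91% higher and 6.02% lower) and 3 serpins had an unadjusted p below 0.05. That count became 1 without Smyd3KO 2 or DEN_WT 1 (Serpina11), Smyd3KO 3 (Serpina12), DEN_WT 2 (Serpinb9) or DEN_Smyd3KO 3 (Serpine2). The test of whether the DEN change differed between genotypes, the interaction, passed for 9 serpins (25.7%), 4 higher and 5 lower in the knockout, beside 16.6% of all tested genes, 8.73% higher and 7.83% lower. Rescaled values gave 2 higher and 5 lower, with the median of all genes at -0.35. Groups are said below not to overlap at many single genes, which was common in these data. Over all genes counted, 43.3% did not overlap in DEN_WT against WT and 49.9% in DEN_Smyd3KO against DEN_WT. The share was 17.4% in Smyd3KO against WT and 35.1% in DEN_Smyd3KO against Smyd3KO.

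**Figure D1:**
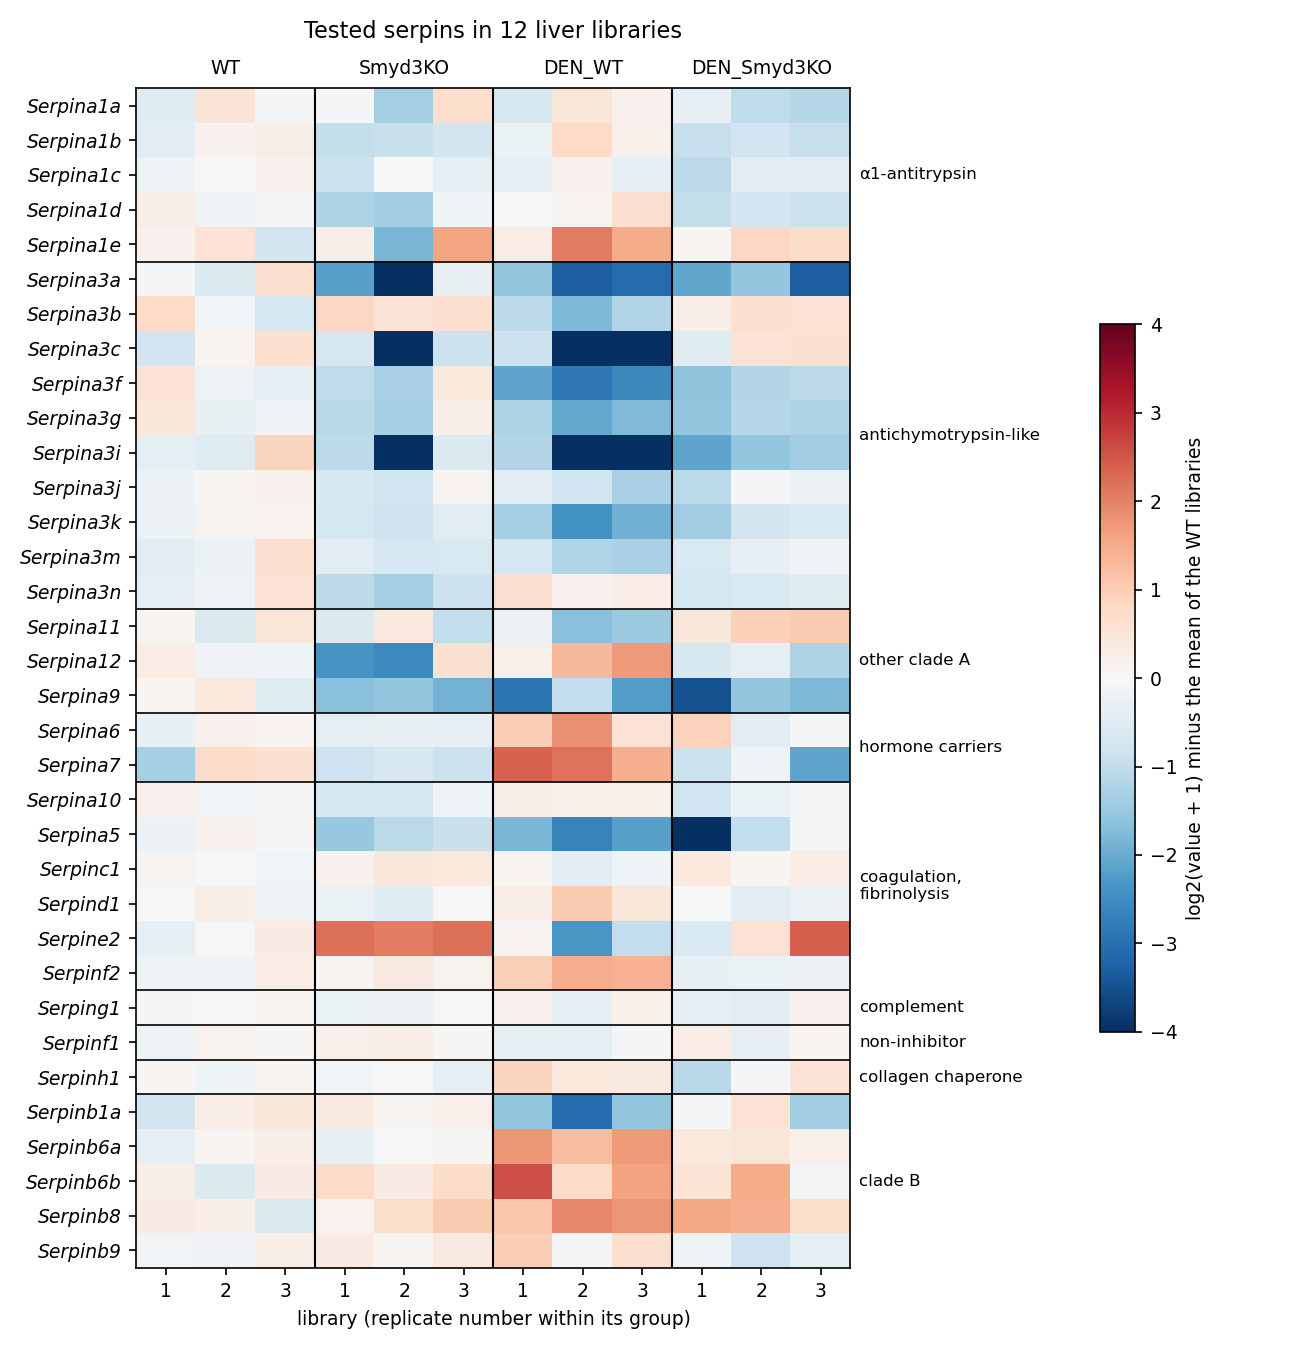
Tested serpins (34 rows, grouped by role) in the 12 libraries (columns, by group and replicate), coloured by log2(value + 1) minus the mean of the 3 WT libraries, with colours saturated at 4 either way. Serpinf2, Serpina7 and Serpinb6a are red in all 3 DEN_WT libraries, and the Serpina3 rows from Serpina3a to Serpina3i are blue there.

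Serpinf2 (chr11:75245234-75253093, mm9) encodes alpha-2-antiplasmin, the main plasma inhibitor of plasmin, which is made by hepatocytes. Its value was 29364, 29804 and 40654 in WT, 35169, 42241 and 36283 in Smyd3KO, 63911, 90649 and 86203 in DEN_WT, and 26645, 27277 and 28105 in DEN_Smyd3KO. The DEN_WT libraries were the 3 highest of the 12 and the DEN_Smyd3KO libraries the 3 lowest. It rose 2.41-fold with DEN (log2 1.27 ± 0.23, adjusted p = 0.00133), and DEN_Smyd3KO was 2.90-fold below DEN_WT (adjusted p = 0.000445). Serpinf1, the next gene along chromosome 11 at 75223271 to 75236203, encodes pigment epithelium-derived factor, a secreted serpin that does not inhibit proteases. It ran from 11647 to 18562 over all libraries, its groups overlapped, and its DEN difference was -0.26 ± 0.20 on the log2 scale (adjusted p = 0.351).

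Serpine2 encodes protease nexin-1, an inhibitor of thrombin and plasminogen activators. Its value was 98, 125 and 157 in WT, 581, 517 and 580 in Smyd3KO, 133, 24 and 62 in DEN_WT, and 82, 185 and 658 in DEN_Smyd3KO. The Smyd3KO libraries lay close together above WT, with a log2 difference of 2.16 ± 0.64 that did not pass (adjusted p = 0.131, and 0.00348 when the 2 groups were fitted alone), and DEN_Smyd3KO overlapped DEN_WT. The difference between those DEN groups passed (log2 1.86, adjusted p = 0.038) and was lost without DEN_WT 2, DEN_WT 3, DEN_Smyd3KO 2 or DEN_Smyd3KO 3, with adjusted p of 0.0625 to 0.175. The log2 difference was 1.06 without DEN_Smyd3KO 3 and 1.24 without DEN_WT 2, and 2.56 without DEN_Smyd3KO 1 and 2.45 without DEN_WT 1.

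The inhibitors of thrombin and factor Xa did not pass with DEN in the values as deposited. Serpinc1 encodes antithrombin, the principal inhibitor of thrombin, and read 71034, 66617 and 61694 in WT, 75346, 90382 and 88511 in Smyd3KO, 69806, 48000 and 59505 in DEN_WT, and 88141, 70646 and 81173 in DEN_Smyd3KO. Each knockout group lay above the wild-type group of the same treatment without overlap, yet neither difference passed (log2 0.35, adjusted p = 0.552, and 0.45, adjusted p = 0.202). Serpind1, heparin cofactor II, read 16962, 20115 and 14866 in WT, 14175, 12305 and 17331 in Smyd3KO, 20680, 35458 and 24102 in DEN_WT, and 17180, 12882 and 14458 in DEN_Smyd3KO. Its DEN_WT libraries were the highest 3, but the DEN difference of 0.60 ± 0.24 did not pass (adjusted p = 0.0718). It passed without DEN_WT 1 (adjusted p = 0.0404) and in rescaled (log2 0.99, 0.00559) and quantile-normalised values (1.20, 0.00402). DEN_Smyd3KO was lower than DEN_WT by a log2 value of -0.82 (adjusted p = 0.0167), a call lost without DEN_WT 2, DEN_Smyd3KO 2 or DEN_Smyd3KO 3 (adjusted p of 0.0521 to 0.066). Serpina10, the protein Z-dependent inhibitor of factor Xa, completed the calls of this comparison at -0.59 (adjusted p = 0.0443) and was named after its value was seen. It read 9882, 9442 and 9497 in DEN_WT and 4725, 6835 and 8066 in DEN_Smyd3KO, and is not among the 43 calls whose stability is counted below. With DEN it passed in rescaled (0.60, adjusted p = 0.042) and quantile-normalised values (0.74, 0.0157). Serpina5, protein C inhibitor, ran from 0 to 35, and its DEN difference of -2.22 ± 0.91 did not pass (adjusted p = 0.0825). It passed with the groups fitted alone (0.0046), with a pseudocount of 5 (0.0253), in quantile-normalised values (0.0362), and without DEN_Smyd3KO 1 (0.00177) or DEN_Smyd3KO 3 (0.049), which are in neither group.

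Serping1, C1 inhibitor, restrains complement and the contact system. It read 24784, 25440 and 27431 in WT, 21727, 22046 and 25390 in Smyd3KO, 28915, 20119 and 29487 in DEN_WT, and 20220, 18860 and 29165 in DEN_Smyd3KO. Every pair of groups overlapped, and its log2 DEN difference was -0.0040 ± 0.23 (adjusted p = 0.991). In quantile-normalised values it was 0.60 (adjusted p = 0.0364), and DEN_Smyd3KO differed from DEN_WT by -0.78 (0.00881) where the deposited values gave -0.21 (0.509). Serpinh1 encodes HSP47, a chaperone of collagen in the endoplasmic reticulum that inhibits no protease. It read 443, 377 and 455 in WT, 391, 417 and 329 in Smyd3KO, 779, 571 and 547 in DEN_WT, and 195, 412 and 613 in DEN_Smyd3KO. DEN_WT lay above WT without overlap, but neither the DEN difference (0.56 ± 0.31, adjusted p = 0.201) nor the genotype difference under DEN (-0.77, adjusted p = 0.0754, and 0.0129 without DEN_Smyd3KO 3) passed. Both passed in the rescaled values (adjusted p = 0.0333 and 0.0259). Stellate cells are a known source of HSP47, and of 8 stellate markers 4 rose and 1 fell with DEN in wild type (Dcn, log2 -0.74, adjusted p = 0.0411), with sums of 4353 to 4692 in WT, 5184 to 9149 in DEN_WT and 3782 to 4588 in DEN_Smyd3KO. The 6 endothelial markers, of which 4 rose, summed to 3726 to 4431, 5333 to 5502 and 4933 to 5503. The part of these cells in the result was not tested.

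The hormone carriers rose with DEN. Serpina7 (chrX:135613796-135619775, mm9) encodes thyroxine-binding globulin, and read 660, 2727 and 2519 in WT, 938, 1066 and 919 in Smyd3KO, 8422, 7424 and 4539 in DEN_WT, and 918, 1489 and 380 in DEN_Smyd3KO. The 3 DEN_WT libraries stood above all others. It rose 3.97-fold with DEN (log2 1.99 ± 0.52, adjusted p = 0.0107, and log2 1.33 without WT 1) and was 8.16-fold lower in DEN_Smyd3KO than in DEN_WT (adjusted p = 0.000863). Serpina6 encodes corticosteroid-binding globulin, and read 4655, 6499 and 6213 in WT, 4345, 4693 and 4605 in Smyd3KO, 11441, 20218 and 8638 in DEN_WT, and 10894, 4171 and 5444 in DEN_Smyd3KO. DEN_WT lay above WT, while DEN_Smyd3KO 1 overlapped DEN_WT. Serpina6 rose 2.20-fold with DEN (adjusted p = 0.0215) and was 2.01-fold lower in DEN_Smyd3KO (adjusted p = 0.0346). The first call was lost without WT 1 or DEN_WT 2 (adjusted p of 0.0741 and 0.0927) and the second without DEN_WT 1, DEN_WT 2, DEN_Smyd3KO 2 or DEN_Smyd3KO 3 (0.0505 to 0.153).

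The clade A genes other than Serpina7 lie in 1 cluster on chromosome 12, from Serpina10 at 104854885 to Serpina3n at 105652539 in mm9. Along it, the alpha-1-antitrypsin copies gave no call with DEN, and from Serpina3a to Serpina3m every tested gene except Serpina3j fell. Serpina3n, at the end of the row, did not.

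**Figure D2:**
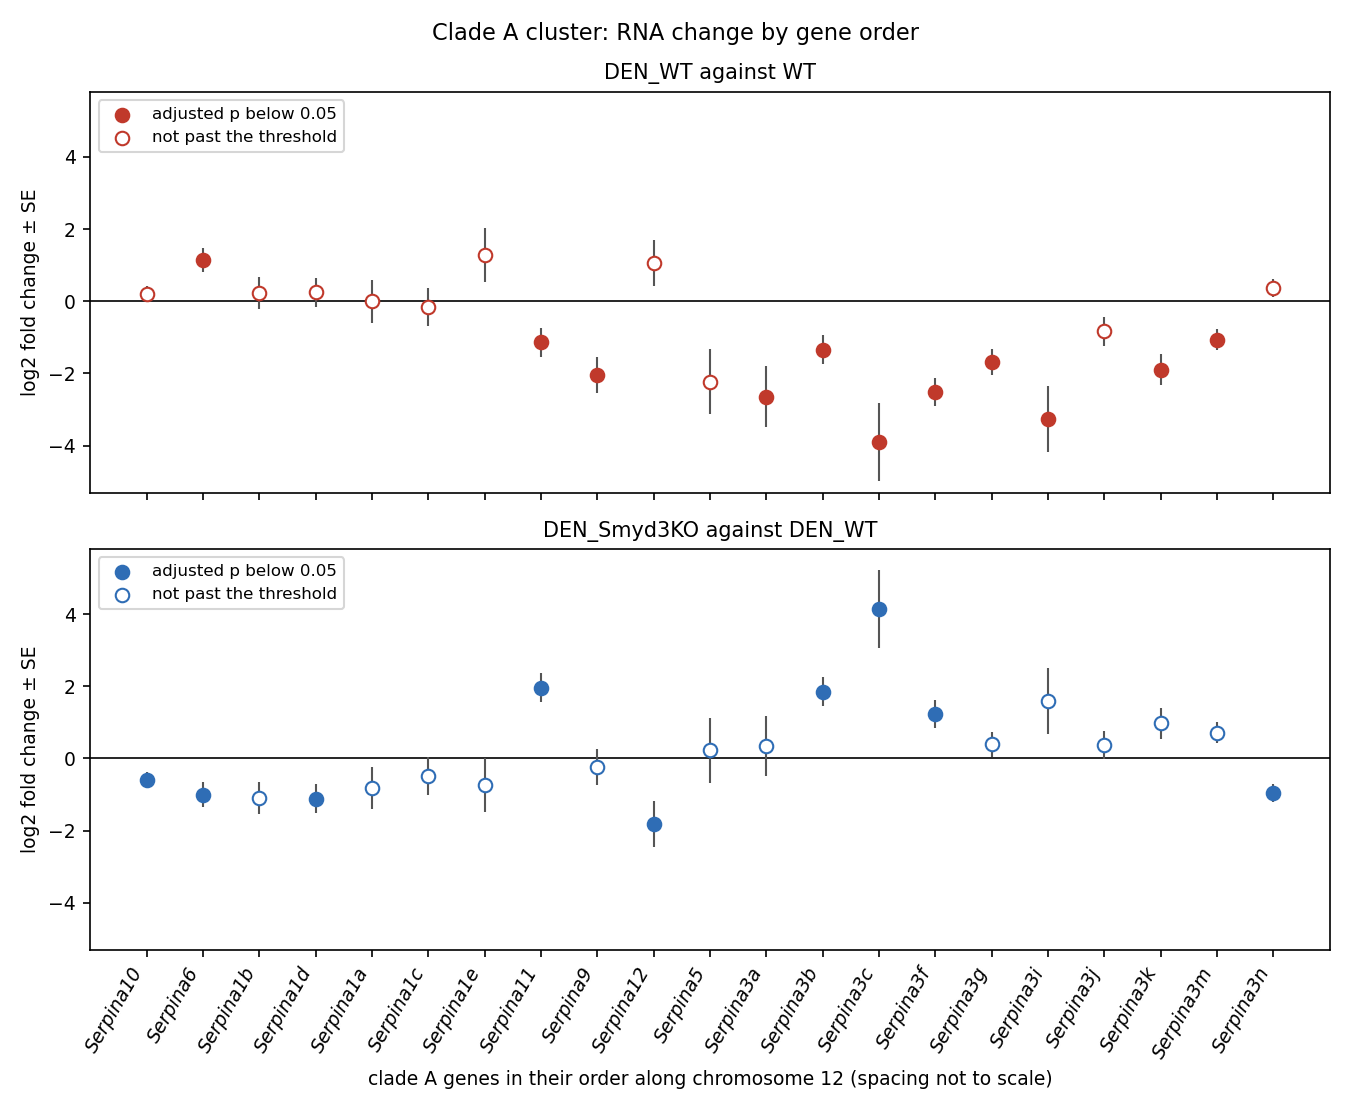
Log2 fold change with its standard error (y axis) of the 21 tested clade A genes in their order along chromosome 12 (x axis), for DEN_WT against WT above and DEN_Smyd3KO against DEN_WT below, with filled points for an adjusted p below 0.05. In the upper panel 8 of the 10 Serpina3 genes are filled and below 0, and in the lower panel Serpina3b, Serpina3c and Serpina3f are filled above 0 and Serpina3n below it.

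Within the Serpina3 row the depth of the fall differed widely. Serpina3c had values of 1873, 3466 and 5109 in WT, 2024, 191 and 1780 in Smyd3KO, 1788, 88 and 62 in DEN_WT, and 2312, 4776 and 4880 in DEN_Smyd3KO. DEN_WT 1 was close to the lowest WT library while DEN_WT 2 and DEN_WT 3 were far below, and Smyd3KO 2 was likewise low without any DEN. The fall with DEN was 14.9-fold (log2 -3.90 ± 1.08, adjusted p = 0.0151) and DEN_Smyd3KO was 17.5-fold above DEN_WT (log2 4.13, adjusted p = 0.0103). The size rests on single libraries, since the fall was -5.42 without DEN_WT 1 and did not pass without WT 3 (-3.56), DEN_WT 2 (-3.26) or DEN_WT 3 (-3.01), with adjusted p of 0.0533 to 0.0723. The genotype difference was 5.66 without DEN_WT 1, 3.49 without DEN_WT 2 and 3.24 without DEN_WT 3, and passed each time.

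Serpina3i followed the same libraries, with 368, 328 and 877 in WT, 228, 24 and 317 in Smyd3KO, 211, 28 and 19 in DEN_WT, and 109, 163 and 181 in DEN_Smyd3KO. It was again lowest in Smyd3KO 2, DEN_WT 2 and DEN_WT 3. It fell 9.53-fold with DEN (log2 -3.25, adjusted p = 0.0159), and the call was lost without WT 3 (-2.81), DEN_WT 2 (-2.86) or DEN_WT 3 (-2.60) and was -4.30 without DEN_WT 1. Serpina3a read 55, 39 and 90 in WT, 12, 2 and 47 in Smyd3KO, 19, 5 and 6 in DEN_WT, and 13, 19 and 5 in DEN_Smyd3KO. The WT libraries of Serpina3a did not overlap with either DEN group. It fell 6.24-fold (adjusted p = 0.0291), a call lost without WT 1, WT 3, DEN_WT 2 or DEN_WT 3 (adjusted p of 0.0615 to 0.0956).

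Serpina3f and Serpina3g, whose promoters are printed above, were more even between libraries. Serpina3g is known as an intracellular inhibitor of cathepsins. Serpina3f read 2299, 1334 and 1157 in WT, 752, 620 and 2034 in Smyd3KO, 356, 210 and 256 in DEN_WT, and 503, 670 and 744 in DEN_Smyd3KO. Its 3 DEN_WT libraries were the lowest of the 12. It fell 5.68-fold with DEN (log2 -2.51 ± 0.39, adjusted p = 0.000398), a call kept in every setting tried. DEN_Smyd3KO was 2.35-fold above DEN_WT (adjusted p = 0.025), and that call was lost without DEN_WT 2, DEN_WT 3, DEN_Smyd3KO 2 or DEN_Smyd3KO 3 (adjusted p of 0.0633 to 0.0927). Serpina3g read 2076, 1229 and 1323 in WT, 697, 591 and 1787 in Smyd3KO, 626, 365 and 444 in DEN_WT, and 517, 684 and 643 in DEN_Smyd3KO. Both DEN groups lay below WT and overlapped each other. It fell 3.21-fold with DEN (adjusted p = 0.00298) and differed by 0.39 ± 0.35 on the log2 scale between the DEN groups (adjusted p = 0.421).

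Serpina3b was near the filter, at 35, 18 and 12 in WT, 36, 29 and 32 in Smyd3KO, 9, 5 and 8 in DEN_WT, and 24, 31 and 30 in DEN_Smyd3KO. DEN_WT was below all other libraries. Its fall was 2.54-fold (adjusted p = 0.0219, lost without WT 1 or DEN_WT 2 at 0.0786 to 0.0935), and DEN_Smyd3KO was 3.58-fold above DEN_WT (adjusted p = 0.00377). Serpina3k made up 70.1% to 89.8% of the summed Serpina3 values, and read 365265, 463942 and 476954 in WT, 266079, 242123 and 325945 in Smyd3KO, 168435, 81519 and 113796 in DEN_WT, and 163140, 257875 and 280771 in DEN_Smyd3KO. WT was above every other library. It fell 3.73-fold with DEN (log2 -1.90 ± 0.43, adjusted p = 0.00473), and DEN_Smyd3KO did not pass against DEN_WT (0.97, adjusted p = 0.095, and 0.0262 without a variance trend).

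Serpina3m and Serpina3n are next to each other and moved differently. Serpina3m read 28588, 32420 and 61131 in WT, 28428, 23851 and 25001 in Smyd3KO, 23486, 16733 and 15628 in DEN_WT, and 24974, 30646 and 35015 in DEN_Smyd3KO. Its DEN_WT libraries were the lowest 3 of the 12. It fell by 1.07 on the log2 scale with DEN (adjusted p = 0.013), a call lost without WT 3 or DEN_WT 3 (0.0544 and 0.0555) and in the rescaled (0.0701) and quantile-normalised values (0.146). Serpina3n, an acute-phase inhibitor of granzyme B, read 11849, 13549 and 23029 in WT, 7529, 5969 and 8563 in Smyd3KO, 24256, 17343 and 19137 in DEN_WT, and 9534, 10171 and 11160 in DEN_Smyd3KO. All 6 knockout libraries lay below all 6 wild-type libraries. Its DEN difference was 0.37 ± 0.25 (adjusted p = 0.277), DEN_Smyd3KO was 1.95-fold below DEN_WT (log2 -0.96, adjusted p = 0.00916), and Smyd3KO differed from WT by -1.09 (adjusted p = 0.0529). That last p was 0.0371 without Smyd3KO 3 and 0.0378 without WT 1. The DEN difference of Serpina3n passed without WT 3 (adjusted p = 0.0452) and in rescaled (log2 0.76, 0.0195) and quantile-normalised values (0.89, 0.0116). Serpina3j ran from 11 to 32, and its DEN difference of -0.84 (adjusted p = 0.129) passed in quantile-normalised values (-1.29, 0.0204).

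The copies share much of their sequence, and how reads shared by several copies were counted is not given in the sources used here, so the split between copies is uncertain. The 10 Serpina3 genes summed to 1 row fell by 1.66 on the log2 scale with DEN (± 0.44, adjusted p = 0.012) and differed by 0.81 between the DEN genotypes (adjusted p = 0.173). As a share of all values the Serpina3 genes took 1.85% ± 0.22 (SD, n = 3) in WT, 1.27% ± 0.082 in Smyd3KO, 0.704% ± 0.25 in DEN_WT and 1.18% ± 0.29 in DEN_Smyd3KO. The STAT motif was present in 7 of the 31 windows of tested serpins, of 5 genes among the 27 with an entry, and in 8.30% of the 32851 windows of all genes. Besides the 3 printed genes it was found in Serpina11 and Serpinb6a. The windows of Serpina3a, Serpina3b and Serpina3c, which also fell, held no match, and Serpinb6a rose.

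The alpha-1-antitrypsin copies encode the main plasma inhibitor of neutrophil elastase. Their promoter windows were 91.4% to 97.6% identical in all 10 pairs. Serpina1a read 272440, 550772 and 370426 in WT, 360471, 149748 and 617416 in Smyd3KO, 242177, 537101 and 425879 in DEN_WT, and 306797, 188503 and 174082 in DEN_Smyd3KO. Serpina1b read 273178, 424168 and 448003 in WT, 193535, 202834 and 226509 in Smyd3KO, 309736, 645094 and 425321 in DEN_WT, and 195436, 220144 and 196249 in DEN_Smyd3KO. Serpina1a varied most within Smyd3KO, from 149748 to 617416, while the 6 knockout libraries of Serpina1b all lay below the 6 wild-type ones. Serpina1c read 551069, 642430 and 708115 in WT, 345823, 624661 and 476720 in Smyd3KO, 504587, 710597 and 498111 in DEN_WT, and 304796, 460178 and 468160 in DEN_Smyd3KO. Serpina1d read 251379, 190098 and 203249 in WT, 88882, 81401 and 193236 in Smyd3KO, 210134, 232209 and 331708 in DEN_WT, and 109495, 124193 and 117099 in DEN_Smyd3KO. For both of these genes the DEN_Smyd3KO libraries were below all DEN_WT libraries. Serpina1e read 159980, 213403 and 85541 in WT, 167899, 39925 and 428205 in Smyd3KO, 175677, 598324 and 399163 in DEN_WT, and 151993, 251077 and 235584 in DEN_Smyd3KO. Smyd3KO 2 and Smyd3KO 3 were the lowest and the second highest of the 12 libraries for it.

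None of the 5 passed with DEN, with log2 differences from -0.16 (Serpina1c) to 1.28 (Serpina1e). Against DEN_WT, all 5 values in DEN_Smyd3KO were negative, from -0.48 to -1.12, and Serpina1d passed (-1.12 ± 0.40, adjusted p = 0.0468). That call was lost without DEN_WT 3 or any one DEN_Smyd3KO library (0.0766 to 0.146), and Serpina1b, at -1.11, missed the threshold (adjusted p = 0.068). Serpina1b passed without DEN_WT 1 (0.0388), in rescaled values (0.0176), without a variance trend (0.0109) and with a minimum value of 50 (0.0319). Summed to 1 row the copies differed by 0.19 with DEN (adjusted p = 0.884) and by -0.79 between the DEN genotypes (adjusted p = 0.467). Their share of all values was 6.60% ± 0.42 (SD, n = 3) in WT, 5.58% ± 1.3 in Smyd3KO, 8.95% ± 2.5 in DEN_WT and 4.93% ± 0.40 in DEN_Smyd3KO. The AP-1 motif TGANTCA was present in the windows of Serpina1a to Serpina1d and of Serpinb8, 5 of the 31 windows, beside 7.81% of all windows.

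The remaining clade A genes sit between the copies. Serpina11 read 1744, 1093 and 2252 in WT, 1112, 2127 and 815 in Smyd3KO, 1372, 513 and 577 in DEN_WT, and 2248, 3175 and 3352 in DEN_Smyd3KO. DEN_WT 1 overlapped WT, and DEN_Smyd3KO was above all of DEN_WT. DEN_Smyd3KO was 3.89-fold above DEN_WT (log2 1.96 ± 0.40, adjusted p = 0.00254), while the fall with DEN (-1.13, adjusted p = 0.0472) was lost without WT 1, WT 3, DEN_WT 2 or DEN_WT 3 (0.106 to 0.167). Serpina12 encodes vaspin, a secreted inhibitor of kallikrein 7. It read 5007, 3630 and 3614 in WT, 786, 690 and 6092 in Smyd3KO, 4685, 9909 and 13008 in DEN_WT, and 2571, 3058 and 1701 in DEN_Smyd3KO. Smyd3KO 3 lay above WT while the other Smyd3KO libraries were far below, and the log2 difference from WT of -1.44 (adjusted p = 0.308) became -2.45 without it (adjusted p = 0.00641). DEN_Smyd3KO was 3.56-fold below DEN_WT (adjusted p = 0.0405), a call lost without DEN_WT 2, DEN_WT 3 or any one DEN_Smyd3KO library (0.0552 to 0.132). Serpina9, known from germinal-centre B cells, read 375, 477 and 258 in WT, 113, 119 and 96 in Smyd3KO, 47, 180 and 76 in DEN_WT, and 31, 122 and 103 in DEN_Smyd3KO. WT was above all 9 other libraries, and the fall with DEN was 4.11-fold (adjusted p = 0.0082). The 5 markers of B and plasma cells summed to 61 to 105 in WT and 156 to 247 in DEN_WT, and 1 of the 5 rose by limma. The part of these cells in the result was not tested.

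Clade B serpins mostly stay inside the cell, where they shield it from its own granule and lysosomal proteases. Serpinb6a, an inhibitor of cathepsin G (chr13:34009787-34094663, mm9), read 213, 290 and 328 in WT, 223, 274 and 284 in Smyd3KO, 932, 646 and 885 in DEN_WT, and 369, 380 and 317 in DEN_Smyd3KO. The DEN_WT libraries stood well above the other 9. It rose 2.97-fold (log2 1.57 ± 0.20, adjusted p = 0.000113) and was 2.29-fold lower in DEN_Smyd3KO (adjusted p = 0.000851), and both calls were kept in every setting tried. Serpinb6b read 53, 29 and 55 in WT, 76, 56 and 74 in Smyd3KO, 268, 75 and 136 in DEN_WT, and 65, 124 and 42 in DEN_Smyd3KO. DEN_WT 2 overlapped Smyd3KO and DEN_Smyd3KO. It rose 3.14-fold (adjusted p = 0.0158, lost without WT 2 or DEN_WT 1 at 0.0723 and 0.0713) and did not pass between the DEN genotypes (-0.99, adjusted p = 0.111, and 0.0355 without DEN_WT 2 and 0.0412 without DEN_Smyd3KO 2). Serpinb8, an inhibitor of furin, read 44, 42 and 23 in WT, 39, 57 and 74 in Smyd3KO, 77, 134 and 121 in DEN_WT, and 103, 97 and 58 in DEN_Smyd3KO. DEN_WT lay above both untreated groups and overlapped DEN_Smyd3KO. It rose 3.02-fold with DEN (adjusted p = 0.00432) and did not pass between the DEN genotypes (-0.37, adjusted p = 0.453).

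Serpinb9 inhibits granzyme B in lymphocytes and their neighbours. It read 242, 236 and 315 in WT, 331, 279 and 337 in Smyd3KO, 517, 247 and 416 in DEN_WT, and 228, 146 and 201 in DEN_Smyd3KO. DEN_Smyd3KO held the 3 lowest values of the 12, and DEN_WT overlapped WT. It was 1.99-fold lower in DEN_Smyd3KO than in DEN_WT (log2 -0.99 ± 0.26, adjusted p = 0.0103), while its DEN difference of 0.52 did not pass (adjusted p = 0.15, 0.0231 without DEN_WT 2 and 0.0118 in rescaled values). Serpinb1a, an inhibitor of neutrophil proteases, went the other way, at 95, 193 and 218 in WT, 204, 172 and 183 in Smyd3KO, 53, 18 and 52 in DEN_WT, and 150, 239 and 60 in DEN_Smyd3KO. The DEN_WT libraries were the lowest 3. It fell 4.22-fold with DEN (adjusted p = 0.00684) and was 3.44-fold higher in DEN_Smyd3KO (adjusted p = 0.0144), a call lost without DEN_WT 2 or DEN_Smyd3KO 2 (0.0687 and 0.0659). Sums of leukocyte markers are given next, and few single markers passed by limma. The 6 neutrophil markers summed to 32 to 47 in WT, 37 to 46 in Smyd3KO, 34 to 140 in DEN_WT and 116 to 150 in DEN_Smyd3KO, with Ly6g at 0 in 9 of 12 libraries. Csf3r, at 23 to 87, was the largest part of each sum. Of 3 tested neutrophil markers, 0 passed with DEN in wild type and 0 between the DEN genotypes. In DEN_Smyd3KO against Smyd3KO, 2 of them were higher. The 7 T and NK markers summed to 46 to 50 in WT, 17 to 51 in Smyd3KO, 66 to 95 in DEN_WT and 44 to 62 in DEN_Smyd3KO. The 4 mast cell markers summed to 92 to 134 in WT, 66 to 128 in Smyd3KO, 139 to 198 in DEN_WT and 62 to 95 in DEN_Smyd3KO. The T and NK and the mast cell sums were higher in DEN_WT than in DEN_Smyd3KO without overlap, but each leaned on 1 gene. Prf1 read 30, 32 and 22 in DEN_WT and 7, 19 and 3 in DEN_Smyd3KO, and 0 of 5 tested T and NK markers passed between these groups. Of the mast cell markers only Kit was tested (61 to 196 over all libraries), and Cpa3, Mcpt4 and Cma1 never passed 10. The 6 macrophage markers summed to 3144 to 3228 in WT, 1467 to 4947 in DEN_WT and 4918 to 6928 in DEN_Smyd3KO. Clec4f, at 802 to 4621, made up most of each sum. Of these 6 markers, 0 passed with DEN in wild type and 1 was higher in DEN_Smyd3KO than in DEN_WT. The part of these cells in the clade B results was not tested.

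**Figure D3:**
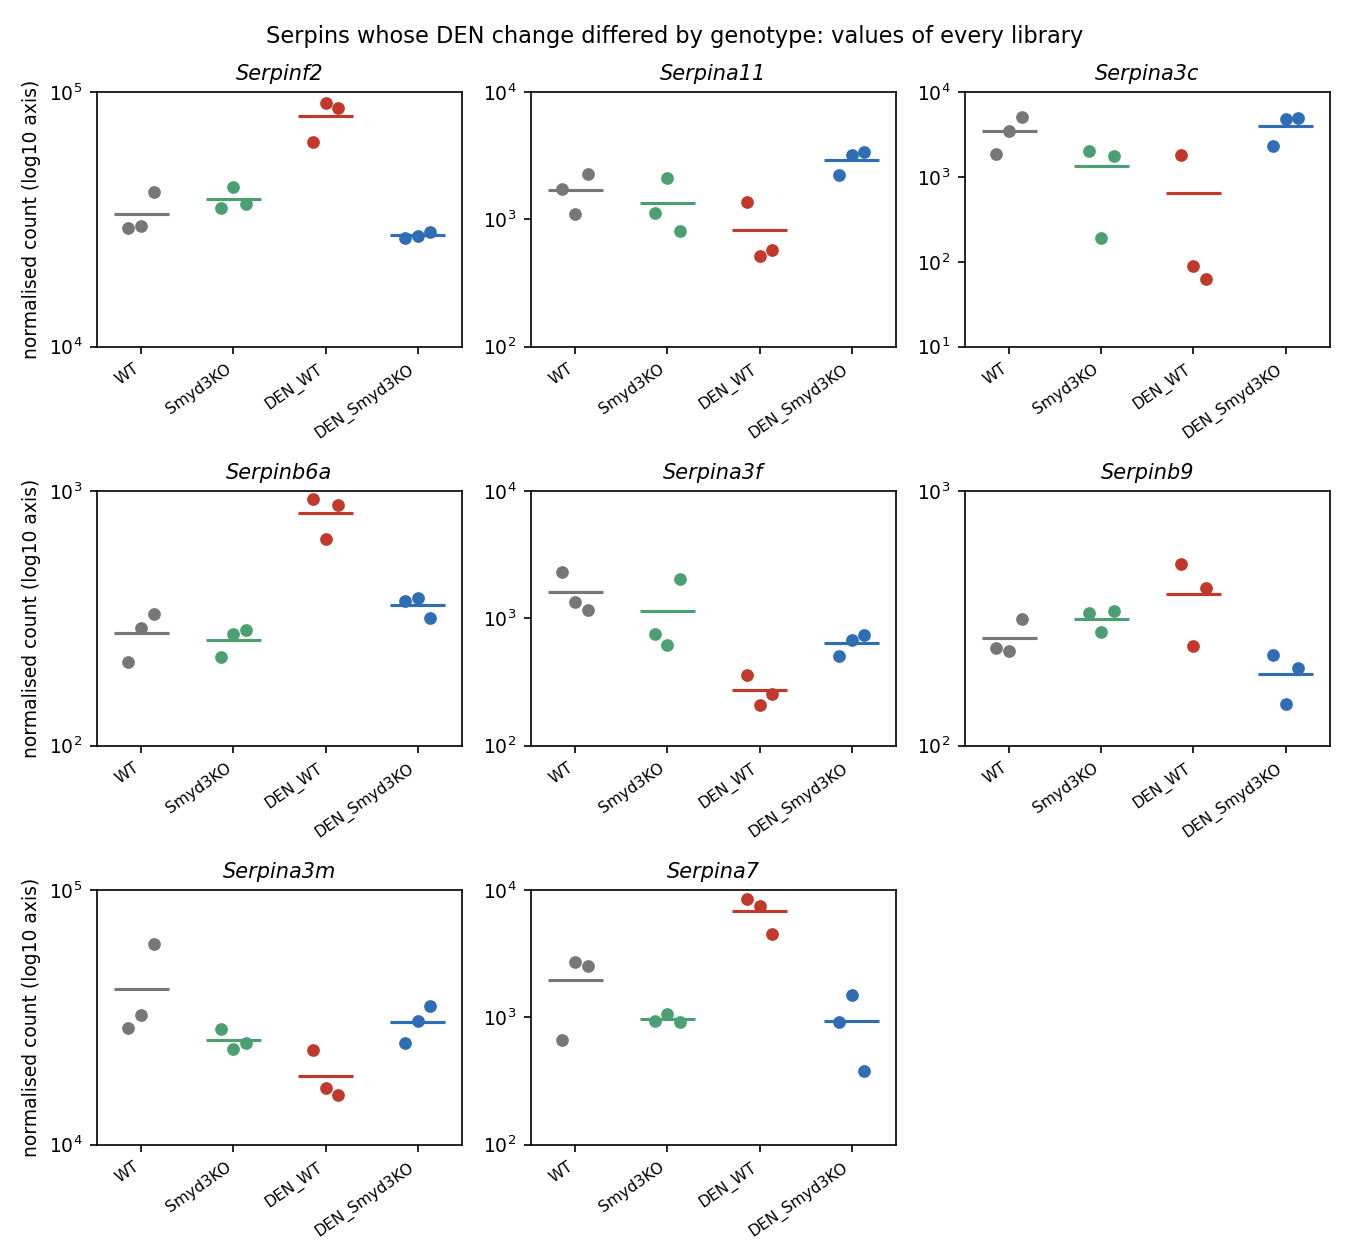
Normalised counts (y axis, log10) of every library (points) and group means (lines) in the 4 groups (x axis) for 8 serpins whose DEN change differed between genotypes. Serpinf2, Serpinb6a and Serpina7 are high in the 3 DEN_WT libraries, and in Serpina3c 1 DEN_WT library at 1788 stands far above the others at 88 and 62.

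The DEN change in the knockout differed from that in wild type for the following 8 serpins. The difference was negative for Serpinf2 (log2 -1.74 ± 0.33, adjusted p = 0.00509), Serpinb6a (-1.12, 0.0194), Serpinb9 (-1.26, 0.0337) and Serpina7 (-2.26, 0.0498). It was positive for Serpina11 (2.34, 0.0149), Serpina3c (5.99, 0.019), Serpina3f (1.87, 0.0334) and Serpina3m (1.29, 0.0457). Serpinf2, Serpina11 and Serpina3c kept the call whichever library was left out, though Serpina3c ranged from 4.89 (without Smyd3KO 2) to 7.52 (without DEN_WT 1). Serpinb6a lost it without DEN_Smyd3KO 3 (adjusted p = 0.0509), and the other 4 lost it without 8 to 10 of the 12 libraries.

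The lists around the serpins gave the following, chosen as genes that meet serpins in the cell or in plasma. Of 24 tested proteases that serpins act on, 6 rose and 2 fell with DEN, and 5 were higher and 6 lower in DEN_Smyd3KO than in DEN_WT. Over all tested genes, 29.6% passed with DEN and 33.9% between the DEN genotypes, and the counts of this and the following lists stand beside those shares. Prtn3, proteinase 3, had values of 1, 1 and 6 in WT, 339, 20 and 200 in DEN_WT and 7, 14 and 17 in DEN_Smyd3KO (log2 5.22 with DEN, adjusted p = 0.00194). Plat, tissue plasminogen activator, had 10, 2 and 15 in WT, 103, 61 and 99 in DEN_WT and 13, 22 and 4 in DEN_Smyd3KO. Plat rose by 3.42 on the log2 scale (adjusted p = 0.0013) and was lower by -2.88 in DEN_Smyd3KO (adjusted p = 0.00383). St14, the membrane protease matriptase, rose by 3.22 (adjusted p = 0.000253) and was lower in DEN_Smyd3KO by -2.16 (adjusted p = 0.00342). All 3 DEN_WT libraries of Plat lay above those of the other groups.

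Of 26 plasma protease inhibitors that are not serpins, 13 rose and 1 fell with DEN, and 8 were lower and 0 higher in DEN_Smyd3KO. Slpi, secretory leukocyte protease inhibitor, had 2, 5 and 5 in WT and 697, 153 and 465 in DEN_WT (log2 6.27, adjusted p = 0.000529). Its DEN_Smyd3KO values were 97, 1290 and 43, overlapped DEN_WT and held the highest of the 12 libraries. Spink3, a trypsin inhibitor, rose by 5.37 and was lower in DEN_Smyd3KO by -2.26 (adjusted p = 0.0474), and Timp1, an inhibitor of matrix metalloproteases, rose by 4.34. A2m, alpha-2-macroglobulin, was lower in DEN_Smyd3KO by -3.59 (adjusted p = 0.00106) and Kng1, kininogen, was lower too (adjusted p = 0.000959). The median log2 change with DEN was 0.85 in this list, 0.15 in the proteases and -0.0040 in the serpins, beside -0.018 over all tested genes.

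Among 14 clearance receptors and cofactors, 4 rose and 0 fell with DEN, led by Lrp8 (1.86), Sort1 (1.36) and Thbd (1.30), which encodes thrombomodulin. In DEN_Smyd3KO, 1 was higher (Lrp2, 2.16) and 4 were lower, among them Thbd (-0.91) and Proz (-0.90), the cofactor protein Z of Serpina10. Of 17 genes for folding and export of serpins from the endoplasmic reticulum, 1 rose (Surf4, 0.70) and 1 fell (Derl2, -0.52) with DEN, and 3 were lower in DEN_Smyd3KO (Edem3, adjusted p = 0.00218, Lman1, 0.0356, and Derl1, 0.02). For the remaining marker lists, the cholangiocyte markers summed to 911 to 1137 in WT, 9753 to 16656 in DEN_WT and 1106 to 1823 in DEN_Smyd3KO. Spp1 made up most of each of these sums, at 557, 878 and 758 in WT and between 9331 and 16227 in DEN_WT. By limma only 1 of the 6 markers rose with DEN, and 1 was lower in DEN_Smyd3KO than in DEN_WT. Krt19 read 19, 55 and 50 in WT and 48, 19 and 53 in DEN_WT. The 4 platelet markers summed to 60 to 81 in WT, 45 to 99 in Smyd3KO, 54 to 97 in DEN_WT and 121 to 143 in DEN_Smyd3KO, and Itga2b was higher in DEN_Smyd3KO than in DEN_WT (log2 1.30, adjusted p = 0.0185). Of the 4 exocrine pancreas markers, Cpa1, Pnlip and Prss1 never passed 9, while Cela1 ran from 658 to 2221 and fell with DEN (log2 -1.15, adjusted p = 0.00858).

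Chromatin from DEN-treated livers gave 1 list of H3K4me3 regions per genotype and 1 list of Smyd3 peaks from DEN_WT, in mm9 coordinates and with no signal value. H3K4me3 marks active gene starts. A region within 1000 bases of the gene start in the table was present for 21 of 35 tested serpins in each H3K4me3 list, beside 78.5% of the 13988 tested protein-coding genes in DEN_WT and 80.5% in DEN_Smyd3KO. A Smyd3 peak was present at 7 of 35 (20.0%), beside 71.2%: Serpina1c, Serpina3k, Serpinb6a, Serpine2, Serpinf2, Serping1 and Serpinh1. The Serpina3 copies Serpina3a, Serpina3b, Serpina3c, Serpina3f, Serpina3g, Serpina3i and Serpina3j had none of the 3, as had Serpina5, Serpina7, Serpina9, Serpinb1a and Serpinc1. Of the 7 serpins with a Smyd3 peak, 2 rose and 1 fell with DEN, and 1 was higher and 2 lower in DEN_Smyd3KO. Of the 28 tested serpins without one, 5 rose and 10 fell with DEN, and 5 were higher and 9 lower in DEN_Smyd3KO. This split was not made over all tested genes, so nothing about serpins is read from it. Among 25 untested serpins, Serpini1, a neuronal serpin, had all 3, and the others had none.

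The H3K4me3 lists differed at 2 tested serpins. Serpina11 had a region of 1486 bases in the DEN_Smyd3KO list and its nearest DEN_WT region was 31967 bases away, while Serpina12 had one of 3244 bases in the DEN_WT list and its nearest DEN_Smyd3KO region was 8584 bases away. In RNA, Serpina11 was higher and Serpina12 lower in DEN_Smyd3KO than in DEN_WT. Over all tested protein-coding genes, 3.71% had a region in the DEN_Smyd3KO list alone and 1.75% in the DEN_WT list alone.

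**Figure D4:**
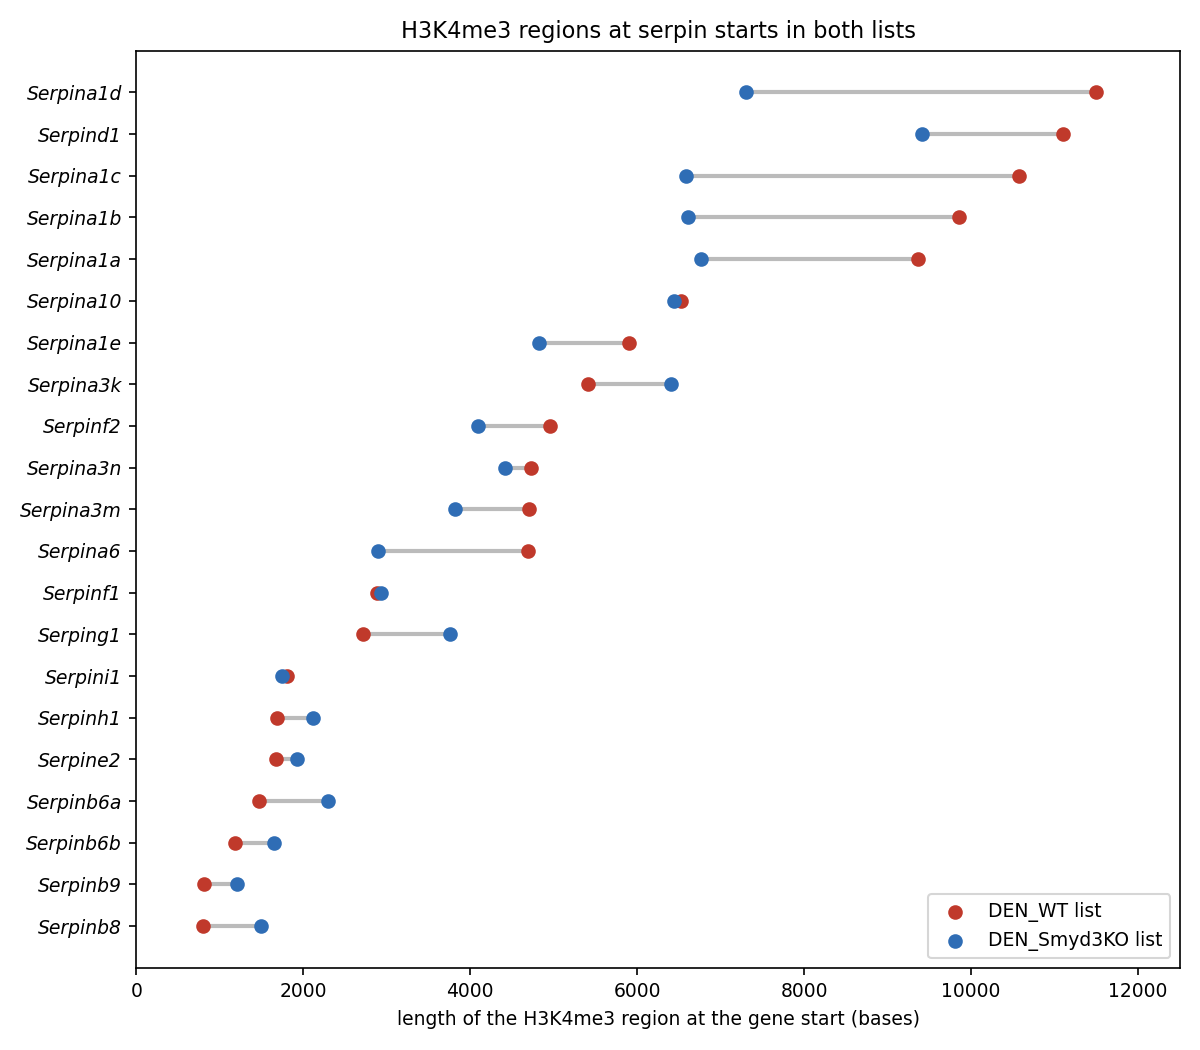
Length in bases (x axis) of the H3K4me3 region at the start of each of the 21 serpins (rows) with a region in both lists, red for DEN_WT and blue for DEN_Smyd3KO. The 5 alpha-1-antitrypsin copies run from 5907 to 11491 bases in the DEN_WT list and from 4818 to 7308 in the DEN_Smyd3KO list, and the clade B genes are shorter in DEN_WT.

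The regions at the alpha-1-antitrypsin copies were shorter in the knockout list. They covered 9363 bases at Serpina1a, 9852 at Serpina1b, 10578 at Serpina1c, 11491 at Serpina1d and 5907 at Serpina1e in DEN_WT. In DEN_Smyd3KO they covered 6763, 6605, 6588, 7308 and 4818 bases. The median ratio of the 5 was 1.49, DEN_WT over DEN_Smyd3KO, beside 0.900 for the 10741 tested protein-coding genes with a region in both lists, of which 32.4% had the longer region in DEN_WT. Serpind1 and Serpina6 were also longer in DEN_WT, at 11100 against 9414 bases and 4686 against 2895, while Serpina3k, Serping1 and Serpinb6a were longer in DEN_Smyd3KO. The files give 1 list per genotype, so these lengths have no replicate check, and reads from such similar copies may have been placed at any of them.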

How the data were processed

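RNA of 12 liver libraries was sequenced on an Ion Proton, and the authors deposited normalised counts per gene, which are whole numbers but not raw counts and were treated as a score (the submitters' processing notes list cutadapt, TopHat2 2.0.9, Cufflinks, Bowtie2, DESeq and mm9). How multi-mapping reads and strand were counted is not given in the sources used here. Each library's own file equalled its column of the series table (12 of 12). The deposited region files have a score column that is 0 throughout and was not used.

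Rows reaching 10 in 3 or more libraries (16471 of 37583) entered the test with limma 3.58.1 in R 4.3.3 on log2(value + 1), all 4 groups in 1 fit with 8 residual degrees of freedom, a variance trend and Benjamini-Hochberg adjustment over all tested rows. Fold changes are on that scale, so they understate changes of low genes. With 3 libraries a group, the smallest exact permutation p is 0.10. The fit was checked on simulated data. The labels number the replicates without saying that they are separate mice, so p-values measure the spread between these libraries, which may be technical. Total read depth is not known.

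The members and gene lists were chosen with earlier results of these data known. Named with every library's value were members past the threshold with DEN, between DEN genotypes or in the interaction (the largest 15 each), and Serpina1a to Serpina1e, Serpinc1, Serpind1, Serpinf2, Serping1 and Serpinh1. 1 member counted in the totals is not reported here. From each list, the 3 largest changes past the threshold are named. Smyd3 and H3K4me3 regions were matched to gene starts within 1000 bases in mm9. Promoter windows are RefSeq's (GRCm38.p6), matched by symbol for 51 of 60 members, and aligned with free end gaps. Motifs were searched on both strands with no overlap between matches of different motifs: STAT, AP-1, TATAAA (6 of 31 windows of tested members, 13.6% of all), CCCTCC (9 of 31, 39.2%), and the C/EBP motif TTGCNNCAA and an HNF1 motif, found in 0 of 31. Of all windows, 2.08% held the C/EBP motif and 0.00913% the HNF1 motif. Both are too rare for 31 windows to show an absence, so nothing about serpins is read from those 2 results. Other pseudocounts, filters, scalings, fits, a replicate block, summed copies and leaving out each library were tried.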

Additional observations from a re-analysis of the deposited data

Results flagged for a closer look

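The test of whether the DEN change differs between genotypes singled out the 8 serpins given here, by limma with Benjamini-Hochberg adjustment. The difference, knockout minus wild type on the log2 scale, was -1.74 for Serpinf2 (adjusted p = 0.00509), -1.12 for Serpinb6a (0.0194), -1.26 for Serpinb9 (0.0337) and -2.26 for Serpina7 (0.0498). It was 2.34 for Serpina11 (0.0149), 5.99 for Serpina3c (0.019), 1.87 for Serpina3f (0.0334) and 1.29 for Serpina3m (0.0457). Serpina3f, Serpina3m, Serpina7 and Serpinb9 each lost this call without 8 to 10 of the 12 libraries, and Serpinb6a without DEN_Smyd3KO 3. In quantile-normalised values Serpina3m was at 0.61 (adjusted p = 0.279). With DEN, Serpinf2, Serpinb6a and Serpina7 rose in wild type, and none of these 3 passed in DEN_Smyd3KO against Smyd3KO (log2 -0.47, 0.45 and -0.27, unadjusted p = 0.0677, 0.0437 and 0.605). The value of Serpina3c was 7.52 without DEN_WT 1 and 4.89 without Smyd3KO 2, both of which stand apart from the other libraries of their groups. The cause was not tested.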

How the results depend on the processing

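Of 43 calls of named serpins, Serpina10 not included, 23 kept their call in every setting tried and none changed direction. The 20 others were lost without at least 1 library of the groups compared. With copies summed to 1 row, 10 of 21 serpin rows passed in DEN_WT against WT, where 29.6% of all tested genes passed with copies kept apart. Fitted alone, the 2 untreated groups gave 2 serpin calls and DEN_Smyd3KO against Smyd3KO gave 1. With all 4 groups in 1 fit, 1.16% and 14.9% of all tested genes passed in these comparisons. Leaving out each library gave 13 to 19 serpin calls for DEN_WT against WT, 10 to 18 for DEN_Smyd3KO against DEN_WT, 0 to 4 for Smyd3KO against WT, 0 to 1 for DEN_Smyd3KO against Smyd3KO and 5 to 9 for the interaction. The cause was not tested. With every gene above 0 in at least 1 library tested, DEN_Smyd3KO against Smyd3KO gave 1 serpin (Serpinb7).

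The replicate numbers gave no sign of pairing, though with 3 libraries a group the check is weak. In their deviations from group means, same-numbered libraries correlated at -0.0996 to 0.120 and differently numbered ones at -0.152 to 0.132. With the replicate block, the serpin counts were 17 for DEN_WT against WT, 15 for DEN_Smyd3KO against DEN_WT, 0 for Smyd3KO against WT, 1 for DEN_Smyd3KO against Smyd3KO and 8 for the interaction. Without the block, the shares of all tested genes that passed were 29.6%, 33.9%, 1.16%, 14.9% and 16.6%, in the same order.

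Over all genes, 191 passed in Smyd3KO against WT, 104 without a variance trend, 115 with the 2 groups fitted alone, and 62 to 555 with 1 library left out (555 without Smyd3KO 3). DEN_Smyd3KO against Smyd3KO went from 2460 to between 1119 and 2661, and the interaction from 2727 to between 1751 and 3075. Rescaling without the 10 highest genes moved the share of calls that were higher from 54.5% to 84.3% with DEN in wild type, from 48.6% to 30.7% between the DEN genotypes from 52.7% to 24.2% in the interaction, from 47.1% to 62.7% in Smyd3KO against WT and from 59.7% to 71.2% in DEN_Smyd3KO against Smyd3KO. Total reads are not known, and the low copies Serpina3a, Serpina3b and Serpina3j rest on small values. A region within 5000 bases counted in place of 1000 left the 21 serpins with H3K4me3 at 21 in both lists and took Smyd3 from 7 to 9, and an overlap of at least 200 bases gave 19, 20 and 7.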

Other observations

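Of the 7 serpin rows of other biotypes, 5 were tested, all pseudogenes of the clade A cluster. With DEN in wild type, 4 of the 5 fell by limma with Benjamini-Hochberg adjustment: Serpina4-ps1 (log2 -4.09, adjusted p = 0.000422), Serpina3h (-3.22, 0.000982), Serpina3e-ps (-3.04, 0.000198) and Serpina3l-ps (-2.38, 0.000831). Over all tested genes, 13.5% fell in that comparison. Serpina3d-ps differed by -0.19 (adjusted p = 0.741). In DEN_Smyd3KO, Serpina3l-ps was higher than in DEN_WT by 4.06 (adjusted p = 4.59e-05) and Serpina3e-ps by 1.51 (adjusted p = 0.0149). Reads shared with the Serpina3 genes could have been counted on these rows.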
